A study of Mus musculus with 65 samples.

Results

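Bone marrow derived dendritic cells (BMDCs), antigen-presenting cells grown from mouse bone marrow, were compared with and without Suv39h1 in animals that lack the type I interferon receptor. The comparison holds 6 of the 65 libraries of the series: 3 labelled Suv39h1KO IfnarKO and 3 labelled Suv39h1WT IfnarKO, taken by their titles and paired by cohort number. Both groups were on the C57BL/6 background, carried MyD88WT and TrifWT genotypes, received no stimulation and were collected at 0 h, so the IfnarKO genotype is shared by the groups on both sides. The kind of Suv39h1 and Ifnar allele, the age and sex of the animals and the number of animals per library are not given in the sources used here. A further 6 libraries of the same experiment, Suv39h1KO IfnarWT and Suv39h1WT IfnarWT with 3 cohorts each, served as the comparison in which the receptor is intact. PolyA RNA was sequenced with a stranded kit, and gene totals of the 6 libraries ran from 50.9 M to 85.3 M counts (M standing for 1e+06). The series states biological replicates, and what the cohort number marks is not given.

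SUV39H1 is a histone methyltransferase that places the trimethyl mark on lysine 9 of histone H3. HP1 proteins bind that mark, and the resulting heterochromatin keeps pericentric satellites, parts of some retrotransposons and genes of other lineages silent. Its paralog SUV39H2 carries out the same reaction. The type I interferon receptor, of which Ifnar1 encodes a chain, signals through JAK1, TYK2 and STAT proteins to interferon-stimulated genes. RNA from transposable elements (TEs) can be sensed as foreign and can start interferon production, and the comparison asks what the loss of Suv39h1 does in cells that cannot respond to that interferon.

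Suv39h1 transcripts were nearly absent from the libraries labelled Suv39h1KO. Its level, in counts per 1e+06 gene counts after TMM scaling (CPM), was 0.371, 0.164 and 0.14 in the Suv39h1KO IfnarKO libraries of cohorts 1, 2 and 3, and 64.6, 40.1 and 36.9 in the Suv39h1WT IfnarKO libraries. The log2 fold change was -7.75 ± 0.18 (SE, n = 3 per group, edgeR quasi-likelihood test, Benjamini-Hochberg adjusted p = 4.7e-10). Ifnar1 transcripts were present in every library, at 122, 128 and 146 CPM without Suv39h1 and 141, 161 and 137 CPM with it. The deleted part of Ifnar1 is not given, so a count over the whole gene does not check that label. A sum over 58 interferon-stimulated genes ran from 1995 to 2662 CPM in the 6 IfnarKO libraries and from 2844 to 4502 CPM in the 6 IfnarWT libraries, ranges that do not overlap. Xist had at most 2 counts and Ddx3y at least 72.2 CPM in each of the 12 libraries, the pattern of male cells. Markers of conventional dendritic cells summed to 3528 to 4459 CPM without Suv39h1 and 3592 to 4075 CPM with it. Macrophage markers summed to 20250 to 25050 CPM and 22340 to 35220 CPM, the highest being Suv39h1WT IfnarKO of cohort 3. In bulk RNA, fewer cells of a type and less RNA per cell cannot be told apart.

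**Figure D1:**
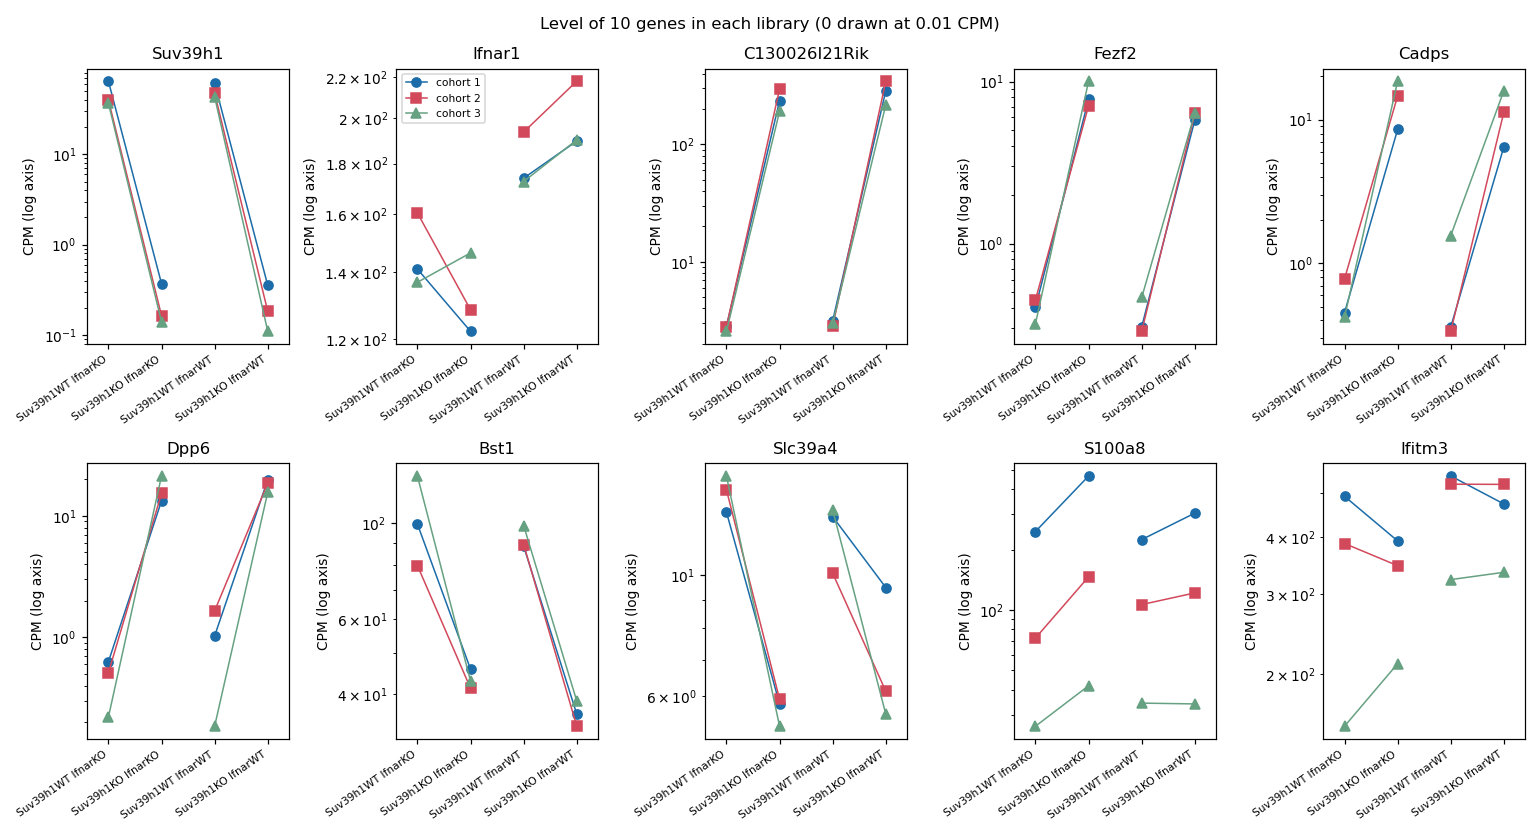
Level of 10 genes in CPM (log axis) in each of the 12 libraries, with 1 symbol per cohort and a line joining the Suv39h1WT and Suv39h1KO libraries of a cohort. Suv39h1 falls and C130026I21Rik, Fezf2, Cadps and Dpp6 rise along every line, while the lines of Ifnar1 and Ifitm3 run in both directions in the IfnarKO libraries.

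Between IfnarKO cells without and with Suv39h1, a small share of the tested genes passed the threshold. With the cohort number as a block, 122 of 14386 tested genes were higher (0.848%) and 70 were lower (0.487%) at an adjusted p under 0.05. Without the block the same test called 27 higher (0.188%) and 5 lower (0.0348%), all of them among the genes called with it. Each called gene moved in its direction in all 3 cohorts. The groups did not overlap for 141 of the called genes, against 9.31% of all tested genes. The counts depended on single libraries. Without the Suv39h1KO IfnarKO library of cohort 1, 2 or 3 the test called 263, 41 or 85 higher and 229, 5 or 33 lower. Without the Suv39h1WT IfnarKO library of cohort 1, 2 or 3 it called 275, 85 or 81 higher and 281, 37 or 24 lower. Across 11 alternative fits, 17 higher and 2 lower genes passed in every one, and none of the called genes changed sign in any. Of these fits DESeq2 called the most genes, 449 higher and 373 lower. In the main edgeR fit 2564 genes had an unadjusted p under 0.05, so the calls do not show how many genes changed.

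The levels before the loss are given as a description of the called genes. A gene that is scarce in Suv39h1WT cells has little room to be called lower and enters the test through the libraries where it is high, so the shares below follow in part from the call. Among the 122 higher genes, 51 (41.8%) had a mean under 1 CPM in Suv39h1WT IfnarKO cells, against 17.9% of all tested genes. Their median log2 fold change was 3.38, or 3.28 with genes at 0 counts placed at their lower bound. The 35 higher genes that started at 10 CPM or more had a median of 0.62. Among the 70 lower genes, 49 (70.0%) started at 10 CPM or more, against 62.6% of all tested genes, with a median of -0.57. At least 4-fold changes numbered 45 among the higher and 3 among the lower genes.

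The 12 largest named rises were Dpp6, Lmo3, Cadps, Fezf2, Cbln1, Prss34, Cd209d, Cldn34c1, Zfp979, Ano2, Nptx2 and Lyplal1, from 5.21 down to 2.67 on the log2 scale. Dpp6 encodes an auxiliary subunit of neuronal potassium channels, and its level was 13.3, 15.3 and 21.3 CPM without Suv39h1 against 0.63, 0.511 and 0.221 CPM with it (log2 fold change 5.21 ± 0.47, edgeR adjusted p = 0.00028). Every Suv39h1KO library stood above every Suv39h1WT library of the comparison, as it did for all 12 genes. Ano2, a calcium-activated chloride channel of sensory neurons, was at 7.07, 11.6 and 8.18 CPM against 1.36, 1.66 and 0.542 CPM (2.95 ± 0.24). Cbln1 (4.14), a secreted organizer of cerebellar synapses, Nptx2 (2.94), a neuronal pentraxin, and Lmo3 (5.00), a LIM-domain cofactor, stayed under 4 CPM even where they were high. Zfp979 (3.18) encodes a zinc finger protein. Without the block 10 of these 12 passed, and the exceptions were Prss34 (adjusted p = 0.571) and Nptx2 (adjusted p = 0.175).

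Fezf2 and Cadps are neighbours on chromosome 14 that rose together. Fezf2, a transcription factor that specifies projection neurons of the cortex and is also used in the thymus, lies at 12342094 to 12348189, and Cadps, which primes dense-core vesicles for release, at 12372563 to 12823079 (mm10). The gap between them is 24.4 kb and holds no other tested gene. Fezf2 was at 7.79, 7.09 and 10.1 CPM without Suv39h1 and 0.404, 0.45 and 0.321 CPM with it (log2 fold change 4.36 ± 0.21, edgeR adjusted p = 5.7e-07). Cadps was at 8.55, 14.7 and 18.6 CPM against 0.452, 0.779 and 0.421 CPM (4.54 ± 0.36, edgeR adjusted p = 0.00012). Both changes passed without the block as well. The 250 bases before each start site are shown because these neighbours moved together, 5′ to 3′ on the minus strand, from the RefSeq windows of GRCm38.p6, with CG dinucleotides, the sites of DNA methylation, in capitals. The Fezf2 window is chr14:12345866-12346115 and the Cadps window chr14:12823080-12823329. The RefSeq start of Fezf2 is 12345865, which lies 2.32 kb inside the GENCODE span given above, so the window belongs to that start and not to the outermost end of the gene. For Cadps the RefSeq start is the end of the GENCODE span.
Fezf2: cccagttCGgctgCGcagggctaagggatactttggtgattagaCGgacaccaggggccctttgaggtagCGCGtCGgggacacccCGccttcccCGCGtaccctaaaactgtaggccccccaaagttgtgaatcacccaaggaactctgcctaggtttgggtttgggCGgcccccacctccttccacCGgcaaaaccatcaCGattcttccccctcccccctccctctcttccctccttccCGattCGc
Cadps: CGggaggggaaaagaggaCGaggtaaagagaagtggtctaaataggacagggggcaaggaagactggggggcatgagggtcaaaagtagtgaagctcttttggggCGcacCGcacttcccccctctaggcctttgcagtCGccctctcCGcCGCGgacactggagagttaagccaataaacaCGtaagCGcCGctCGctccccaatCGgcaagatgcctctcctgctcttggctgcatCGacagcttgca
Each window holds 14 CG dinucleotides, against a median of 6 over 32851 RefSeq windows of the same length, and 29.4% of those windows hold at least as many.

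Among the genes that rose at least 4-fold, the highest level was reached by C130026I21Rik on chromosome 1, a gene model of the family of Sp100 and Sp110 nuclear body genes. It, Sp110 and the other Rik and Gm gene models named here were chosen after their values were seen. C130026I21Rik was at 236, 297 and 191 CPM without Suv39h1 and at 2.81, 2.8 and 2.55 CPM with it (log2 fold change 6.46 ± 0.15, edgeR adjusted p = 4.7e-10). A530032D15Rik lies within its annotated span and rose from 5.79, 8.14 and 4.31 CPM to 21.3, 25.5 and 15.6 CPM (1.79 ± 0.10). Gm7609, 89.8 kb further along and also within that span, rose from 0.388, 0.329 and 0.923 CPM to 5.77, 6.34 and 9.28 CPM (3.79 ± 0.18). Sp110, an interferon-inducible nuclear body gene at 85576899 to 85598817 on the same chromosome, rose by 0.87 ± 0.10, with 132, 148 and 105 CPM against 77.8, 89.2 and 47.4 CPM. The Sp110 change passed with the block (edgeR adjusted p = 0.0015) and not without it (adjusted p = 0.356). These genes share near-identical stretches, and how the counting placed reads that match several of them is not given, so the share of each is uncertain. On chromosome 12, 5730507C01Rik went from 0.097, 0.0243 and 0.14 CPM to 10.4, 12.7 and 12.8 CPM (7.22 ± 0.30).

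A group of genes had no counts at all in the 3 Suv39h1WT IfnarKO libraries. Tenm2, a synaptic adhesion protein, had 171 counts over the 3 Suv39h1KO IfnarKO libraries, at 0.742, 0.737 and 0.9 CPM. That is at least 51.9-fold higher, taking 3 counts over the group as the floor. Fam135b had 172 counts (at least 52.2-fold higher). Cadm2, a neuronal adhesion molecule, had 57 counts (at least 17.3-fold higher), and Dsg1a, a desmosomal cadherin of skin, 55 (at least 16.7-fold higher). Dcaf12l2 had 56 counts (at least 17.01-fold higher) and Timd4, a phosphatidylserine receptor of macrophages, 32 (at least 9.72-fold higher). Of these 6, Tenm2, Fam135b and Dcaf12l2 also passed without the block. All 6 were chosen after their values were seen. Glutamate receptor gene Grin3a (2.48), the vesicle gene Snap91 (4.51) and the imprinted gene Ndn (3.97) also rose, from a mean of 0.287, 0.0241 and 0.0323 CPM in Suv39h1WT IfnarKO cells. Grin3a passed without the block, Snap91 (adjusted p = 0.0791) and Ndn (adjusted p = 0.0709) did not, and Grin3a and Snap91 were chosen after their values were seen. Ndn reached 0.557, 0.437 and 0.584 CPM, so these transcripts were scarce even where they were detected.

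Some called genes were neighbours. Of 187 called genes with a position in GENCODE release M21, 21 formed 12 pairs of neighbours within 250 kb, and 11 of the 12 pairs moved in the same direction. The pairs among C130026I21Rik, A530032D15Rik and Gm7609 lie within the annotated span of C130026I21Rik and may share reads, so they are not independent. Among all 64490 pairs of tested genes within that distance 53.8% had the same sign, and how many called pairs to expect was not computed. Cd209d and Cd209b on chromosome 8, lectins of the DC-SIGN family, rose by 3.38 ± 0.53 and 3.94 ± 0.61. Cd209b was at 0.798, 1.17 and 0.701 CPM without Suv39h1 and 0.129, 0.0487 and 0 CPM with it. Among C-type lectins on chromosome 6, Clec4a1 (1.48) and Clec4a3 (0.81) rose and Clec4b2 (-1.60) fell. Of these 5 lectin genes, Cd209d and Clec4a1 passed without the block, and all but Cd209d were chosen after their values were seen. Around Suv39h1 itself on the X chromosome none of 80 tested genes within 20 Mb passed. Of the 29 tested genes on a list of its near neighbours, 24 had a value above 0, with a median log2 fold change of 0.17 against 0.01 over all tested genes.

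The lower genes changed less than the higher ones. Bst1 and Cd38, adjacent NAD-consuming ectoenzymes on chromosome 5 (24.6 kb apart), fell together. Bst1 was at 45.8, 41.3 and 42.9 CPM without Suv39h1 against 99.7, 79.8 and 129 CPM with it (log2 fold change -1.23 ± 0.11, edgeR adjusted p = 0.00024). Cd38 was at 10.7, 7.61 and 9.58 CPM against 19.2, 14.9 and 20.1 CPM (-0.96 ± 0.13, adjusted p = 0.0051 and 0.0714 without the block). Neither gene overlapped between the groups. The zinc importer Slc39a4 (-1.33 ± 0.18) was at 5.81, 5.92 and 5.28 CPM against 13.04, 14.3 and 15.2 CPM. Slc39a4 and Suv39h1 were the lower genes that passed in each of the 11 alternative fits.

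The 12 largest named falls were Suv39h1, Fam78b, Bambi, Rps4l, Sel1l3, Dio2, B3galt2, Kif19a, Slc4a4, Slc39a4, Tex14 and Bst1. Dio2, which activates thyroid hormone, was at 6.25, 6.33 and 8.25 CPM against 12.8, 18.1 and 49.8 CPM (-1.74 ± 0.25, edgeR adjusted p = 0.0066). Bambi, a decoy receptor for TGF-beta family ligands, was at 1.24, 0.491 and 0.467 CPM against 2.2, 2.37 and 3.77 CPM (-1.96). Of these 12, 3 passed without the block (Suv39h1, Bst1 and Slc39a4) and 9 had groups that did not overlap. Tex14, a germ cell bridge protein, overlapped widely, with 1.84, 14.1 and 0.9 CPM against 5.54, 26.7 and 2.23 CPM, both groups being highest in cohort 2. Further lower genes were the phospholipid transfer gene Pltp (-1.03 ± 0.15), the actin regulator Cttn (-1.16), the transglutaminase Tgm2 (-0.92), the interleukin-1 antagonist Il1rn (-0.64), the hypoxia factor Hif1a (-0.46) and the homeobox gene Meis1 (-1.14). Of these 6, Pltp also passed without the block (adjusted p = 0.0369). These 6 and Cd38 were chosen after their values were seen.

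No gene on the list of interferon-stimulated genes used here passed in either direction. Sp110, described above as interferon-inducible and higher, was not on that list. Of 57 tested, 28 had a log2 fold change above 0 and 29 below, with a median of -0.01 against 0.01 over all tested genes. Ifitm3, an antiviral membrane protein, was at 392, 346 and 211 CPM without Suv39h1 and 491, 387 and 154 CPM with it, so the groups overlapped (-0.04 ± 0.17, edgeR adjusted p = 0.925). Mx1, an antiviral GTPase, was at 183, 228 and 340 CPM against 145, 204 and 191 CPM (0.42 ± 0.18, adjusted p = 0.252), and Gbp2, a guanylate-binding protein, at 0.31 ± 0.13 (adjusted p = 0.241). Of these 57, 1 was called higher and 1 lower without the Suv39h1KO IfnarKO library of cohort 1, 1 higher without the Suv39h1WT IfnarKO library of cohort 1, and 1 higher and 3 lower by DESeq2. None of 13 tested genes of the interferons and their receptor pathway passed (median 0.04), none of 22 nucleic acid sensors (median -0.03) and none of 28 NF-kB and early response genes (median 0.04). Ifnb1 had at most 11 counts in any of the 12 libraries. Among 24 tested inflammatory cytokines and chemokines, Csf1, the macrophage growth factor, was lower (86.8, 81.2 and 82.2 CPM against 106, 116 and 151 CPM, -0.57 ± 0.12, adjusted p = 0.0442 and 0.16 without the block), and the other 23 did not pass.

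Among 37 tested heterochromatin and TE silencing factors Suv39h1 itself was the one called, and the median of the list was -0.01. Ehmt2, which places the dimethyl mark on the same lysine, had a value of 0.11 ± 0.06 (adjusted p = 0.385), and the DNA methyltransferase Dnmt3a -0.03 ± 0.14 (adjusted p = 0.944). Of 345 tested Zfp zinc finger genes, Zfp979 and Zfp960 (1.15) were higher and Zfp110 (-0.52) was lower. Of 15 tested germline genes, Tdrkh (0.72), a piRNA pathway protein, was higher and Tex14 lower, and 12 of the 41 listed in the table had no counts in the 6 libraries. None of 22 tested clustered protocadherins passed, although all 22 had a value above 0 (median 0.27). These share exons, so their counts are not independent. Of 19 tested imprinted genes, Ndn was higher and Peg10 (-1.12) and Impact (-0.44) were lower (median -0.06). None of 25 DNA damage and p53 target genes (median 0.15) and none of 20 glycolysis and hypoxia genes (median -0.06) passed. Over all the lists, Suv39h1 and Zfp979 were the members that passed without the block.

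Of 18 tested granulocyte markers 6 were higher and none lower with the block, with a median of 0.69. Over all tested genes 0.848% were higher and 0.487% lower, with a median of 0.01. Camp, an antimicrobial peptide of neutrophils, was at 46.9, 12.8 and 3.54 CPM without Suv39h1 and 22.01, 5.67 and 1.38 CPM with it (1.19 ± 0.10, edgeR adjusted p = 0.00021 and 0.967 without the block). S100a8, a calprotectin subunit, was at 466, 146 and 41.9 CPM against 246, 72.5 and 26.3 CPM (0.87 ± 0.13, adjusted p = 0.0086 and 0.967). The values of the groups overlapped, since cohort 1 was the highest and cohort 3 the lowest in both, and the Suv39h1KO library was the higher of each pair. Without the block none of the 18 passed, and with the Suv39h1KO IfnarKO library of cohort 2 left out 2 passed. The fit of only the 6 libraries called 1 higher of 17 tested, and DESeq2 called 9 higher and 1 lower. The summed level of the whole list ran from 869.7 to 2873 CPM against 1235 to 2312 CPM, and in cohort 3 the Suv39h1KO library was the lower one. Mmp8, a collagenase and the most abundant marker of the list that did not pass, had a value of -0.30 ± 0.14 (adjusted p = 0.302), and Chil3, a chitinase-like protein, -0.41 ± 0.14 (adjusted p = 0.151). The basophil proteases Prss34 (4.42, 2.52 and 0.409 CPM against 0.323, 0.219 and 0 CPM) and Mcpt8 (1.3, 0.423 and 0.164 CPM against 0.162, 0.0609 and 0 CPM) followed the same order of cohorts. Gata2, Kit and Il1rl1, the most abundant markers of mast cells and basophils, did not pass (0.25, -0.33 and 0.15), and the list summed to 85.5 to 133 CPM against 62.1 to 138 CPM with 3 markers at 0. Of 11 tested plasmacytoid dendritic cell markers Ly6c2 was higher (1.06), also ordered by cohort (20.8, 11.7 and 4.53 CPM against 13.7, 4.82 and 1.67 CPM). None of the tested markers passed for B cells (7), T and NK cells (8), erythroid cells and megakaryocytes (5) or fibroblasts and stroma (12). In that order, 2, 7, 2 and 8 of these markers had a value above 0. The median of the fibroblast and stroma markers was 0.68. Of the 18 granulocyte markers 15 were above 0, and of 9 tested markers of mast cells and basophils 8 were. The lean above 0 was therefore not limited to the granulocyte list. The part of the cell makeup in these results was not tested.

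Several housekeeping and metabolic groups leaned upward with few calls. Of all 14386 tested genes, 7530 had a value above 0. Of 80 tested genes with names of cytosolic ribosomal proteins, 78 had a value above 0 (median 0.29). Of these 80, 2 were higher (Rpl22l1 0.67, Rpl31 0.47) and 1 lower (Rps4l -1.88). GENCODE lists Rps4l as a transcribed processed pseudogene. Ribosomal protein genes took 5.07% ± 0.53 (SD, n = 3) of gene counts without Suv39h1 and 4.15% ± 0.83 with it. These shares overlapped between the groups (two-sided exact permutation test, p = 0.2). By cohort the differences were 0.626, 0.904 and 1.23 percentage points in the IfnarKO libraries. In the receptor-intact libraries they were 0.284, 1.39 and -0.098. All 19 tested genes of cholesterol synthesis and uptake were above 0 (median 0.33), and Cyp51 (0.56) and Msmo1 (0.45) were higher. The summed level of the list was 2077, 1987 and 2540 CPM without Suv39h1 against 1706, 1747 and 1853 CPM with it, so the groups did not overlap. Of 34 cell division genes 32 were above 0 (median 0.24). Their summed level was 3287, 2929 and 2893 CPM without Suv39h1 against 3788, 2387 and 1954 CPM with it. These groups overlapped, and in cohort 1 the Suv39h1KO library was the lower one. Cenpa (0.32) was the cell division gene called higher. These calls depended on single libraries. Without the Suv39h1WT IfnarKO library of cohort 1, 16 cell division genes were higher, and in 4 of the other 5 leave-outs none was. Of the cholesterol genes 6 were higher without the Suv39h1KO IfnarKO library of cohort 1 and none without that of cohort 2, and DESeq2 called 11. None of these 5 higher genes passed without the block. Among dendritic cell maturation genes the actin bundler Fscn1 was higher (0.83) and the checkpoint ligand Pdcd1lg2 lower (-0.58), with 23 tested and a median of 0.20. None of 13 MHC class II genes (median 0.28) and none of 20 MHC class I genes (median 0.15) passed. The summed level of the class II genes was 28300, 28030 and 29230 CPM against 23760, 25410 and 19680 CPM, without overlap.

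In the libraries with an intact receptor nearly all of these genes had the same direction. These libraries share no sample with the IfnarKO comparison, but the same fit of all 12 libraries gave both tests. The estimates of spread and cohort shift are shared, so the calls are not independent of each other, for genes or for the repeats below. Of the 192 genes called in the IfnarKO libraries (1.33%), 188 had the same sign in the receptor-intact libraries, against 67.7% of all tested genes. The median of the 122 higher genes was 1.29 without the receptor and 0.95 with it. The test on the receptor-intact libraries called 163 genes (1.13%), of which 84 were higher (0.584%) and 79 lower (0.549%). The 86 genes called in the same direction in both make up 44.8% of the calls without the receptor and 52.8% of the calls with it. The fit of only the 6 IfnarKO libraries called 25 genes higher and 3 lower, all of them among the 192. C130026I21Rik changed by 6.57, Fezf2 by 4.17, Cadps by 4.06, Dpp6 by 4.18 and Bst1 by -1.35 with the receptor intact, and all of these passed there. The exceptions in sign were Slco5a1, 2410006H16Rik, Plxna4 and Mdn1, with -0.10, -0.04, -0.05 and 0.10 in the receptor-intact libraries. The test for a Suv39h1 effect that differed between the receptor genotypes called 0 of 14386 genes by edgeR (538 at an unadjusted p under 0.05). By DESeq2 it called 13. With 3 libraries per group, this does not show that the effects were equal.

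**Figure D2:**
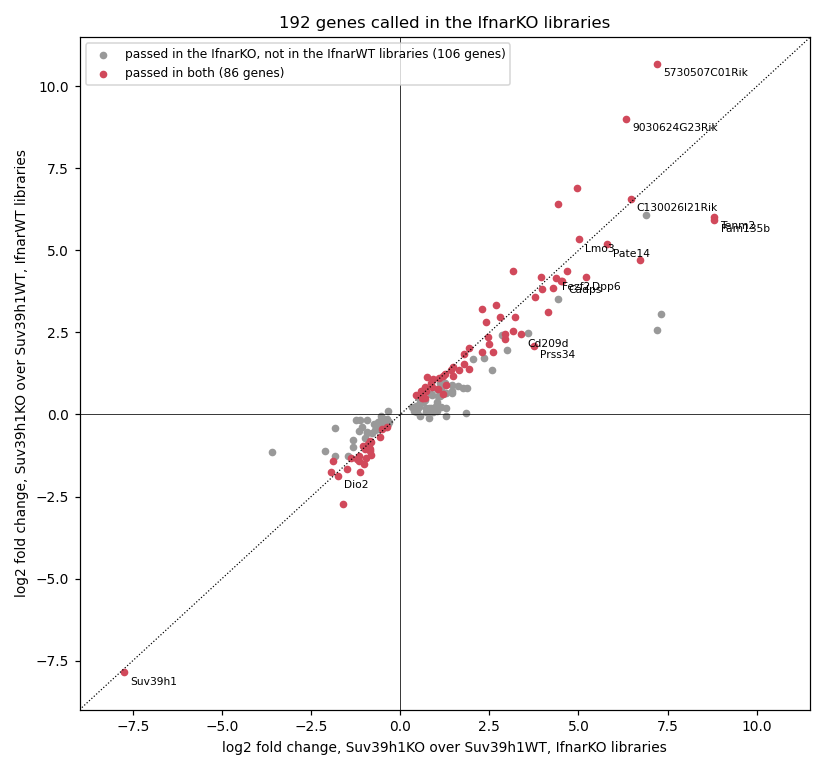
Log2 fold change of the 192 called genes, Suv39h1KO over Suv39h1WT, in the IfnarKO libraries (x axis) and in the IfnarWT libraries (y axis), with red points for the 86 genes called in both. Points lie in the upper right or lower left, with 4 exceptions close to the horizontal zero line, and 6 genes with no counts in the Suv39h1WT IfnarKO libraries, Tenm2 and Fam135b among them, sit at a fitted value that is no bound.

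Transposable elements as a whole were not more abundant. Their share of gene and TE counts was 3.67%, 4.07% and 4.36% in the Suv39h1KO IfnarKO libraries of cohorts 1, 2 and 3, and 4.29%, 4.39% and 4.37% in the Suv39h1WT IfnarKO libraries. The means were 4.03% ± 0.35 and 4.35% ± 0.05 (SD, n = 3), a difference of -0.32 percentage points (two-sided exact permutation test, p = 0.2, the smallest possible being 0.1). By cohort the difference was -0.627, -0.320 and -0.00865 percentage points, lower in all 3. With the signs of these differences flipped within cohorts, a test added after the data were seen, the two-sided exact permutation p was 0.25, the smallest that 3 pairs allow. The SINE share was 2.01% against 2.16%, the LTR share 1.18% against 1.28% and the LINE share 0.651% against 0.721%, each with an exact permutation p = 0.2. Satellite counts came to 0.111% against 0.114% (exact permutation p = 0.9). In the receptor-intact libraries the TE share was 3.62%, 4.15% and 4.43% without Suv39h1 and 3.57%, 4.92% and 4.22% with it. The ribosomal protein share moved the other way from the TE share in the IfnarKO libraries, and their relation was not tested.

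**Figure D3:**
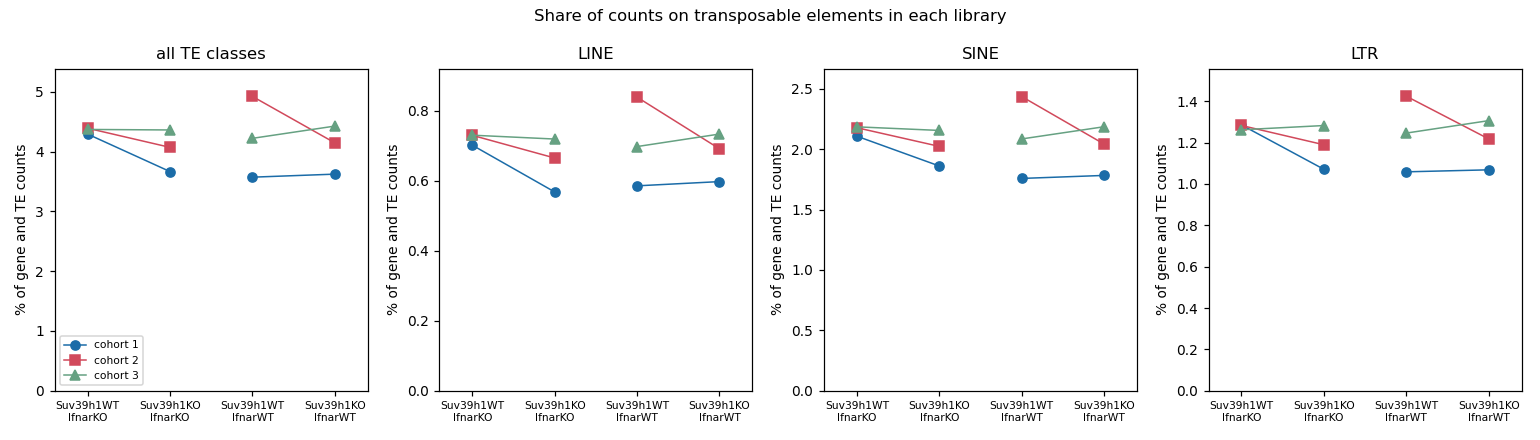
Share of gene and TE counts that fell on all transposable elements and on the LINE, SINE and LTR classes in each of the 12 libraries (y axes in percent from 0), with cohorts joined by lines. In the IfnarKO libraries the share is 3.67% to 4.36% without Suv39h1 and 4.29% to 4.39% with it.

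At the level of subfamilies, the named groups of related repeats, 10 of 948 were higher (1.05%) and 7 lower (0.738%). Without the block 4 were higher and 2 lower. Of these 17, 12 belonged to the ERVK class of endogenous retroviruses, a class with 271 of the tested subfamilies. RLTR10D2, an ERVK LTR, was at 1.43, 1.24 and 2.28 CPM without Suv39h1 against 0.226, 0.316 and 0.241 CPM with it (log2 fold change 2.57 ± 0.26, edgeR adjusted p = 3.1e-09). IAP-d-int, an intracisternal A particle subfamily, was at 9.93, 9.60 and 14.7 CPM against 4.19, 3.38 and 4.35 CPM (1.50 ± 0.13), and its relative IAP1-MM_LTR at 6.33, 4.30 and 6.18 CPM against 2.88, 1.84 and 2.13 CPM (1.29 ± 0.15). ERVB4_3-I_MM-int rose by 2.01 ± 0.14 (5.96, 14.5 and 14.8 CPM against 1.41, 3.87 and 3.63 CPM). The DNA transposons Ricksha_c (1.51 ± 0.13) and FordPrefect (0.68 ± 0.16) were higher as well. Of these 6, RLTR10D2, IAP-d-int and IAP1-MM_LTR passed without the block.

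The lower subfamilies were led by MMTV-int, the internal part of the mouse mammary tumour provirus, at 9.89, 7.45 and 9.45 CPM against 35.5, 26.1 and 19.5 CPM (log2 fold change -1.59 ± 0.16, edgeR adjusted p = 2.3e-09). Its LTR, RLTR3_Mm, fell with it (-1.28 ± 0.18). MMERGLN-int, an ERV1 element, was at 90.6, 61.8 and 76.5 CPM against 180.3, 134.6 and 152.5 CPM (-1.04 ± 0.18). RMER16_Mm (-0.92), MMERVK10D3_I-int (-0.85) and IAPLTR3-int (-0.55) were also lower. MMTV-int and RLTR3_Mm passed without the block. In the receptor-intact libraries 9 subfamilies were higher (0.949%) and 11 lower (1.16%), and 13 of the 17 were called in both (76.5% of 17 and 65.0% of 20). Of the 17, 16 had the same sign in those libraries, against 73.0% of all tested subfamilies. The exception was FordPrefect, at -0.20 with the receptor intact. The test of the difference between the receptor genotypes called 0 subfamilies by edgeR (19 at an unadjusted p under 0.05) and 1 by DESeq2. Without the Suv39h1KO IfnarKO library of cohort 1, 12 subfamilies were lower.

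Most of these calls rested on few copies. A single copy held 78.8% of the counts of MMTV-int, 81.2% of Ricksha_c, 95.3% of FordPrefect, 73.3% of MMERGLN-int and 39.7% of IAP-d-int. When the 10 copies with most counts were taken out of each subfamily, 1 was called higher (ERVB4_3-I_MM-int, 54 counts against 1) and 0 lower, of 714 tested. Ricksha_c, FordPrefect, MMERGLN-int, MMERVK10D3_I-int and IAPLTR3-int then had the opposite sign (-0.47, -0.13, 0.15, 0.64 and 0.61), none past the threshold. Scaling by repeat totals in place of gene totals moved the median of all subfamilies from -0.15 to -0.01.

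**Figure D4:**
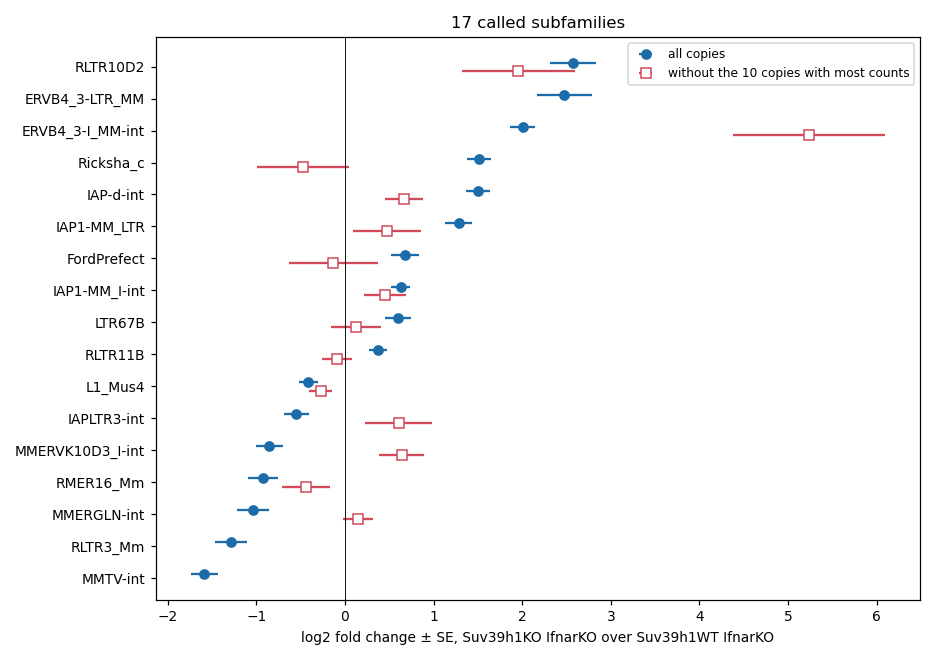
Log2 fold change ± SE of the 17 called subfamilies, Suv39h1KO IfnarKO over Suv39h1WT IfnarKO, with all copies (blue circles) and without the 10 copies with most counts (red squares, where the rest could be tested). Red squares lie nearer to 0 than the blue circles or on the other side of it for most subfamilies, with ERVB4_3-I_MM-int as the exception at 5.24, a fit to 54 counts against 1.

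Of the repeat groups often measured in heterochromatin studies, those given here did not pass. Names chosen for young L1 elements, and SYNREP_MM, were not found in the repeat table under those spellings, so they have no value here. Of 130 tested L1 subfamilies 0 were higher and 1, L1_Mus4, was lower. The L1 median was -0.20, against -0.15 over all subfamilies. IAPEz-int was at 166.9, 191.5 and 162.9 CPM without Suv39h1 and 166.0, 182.8 and 171.6 CPM with it (log2 fold change -0.00011 ± 0.089, edgeR adjusted p = 0.999). MERVL-int, expressed in early embryos, had a value of -0.12 (adjusted p = 0.509), MMERVK10C-int -0.14 (adjusted p = 0.542) and ETnERV-int 0.05 (adjusted p = 0.802). The SINEs B1_Mus1 (mean 1201 against 1281 CPM, -0.09) and B2_Mm2 (mean 1268 against 1323 CPM, -0.06) did not pass either. GSAT_MM, the major satellite of mouse pericentromeres, was at 0.798, 1.51 and 0.912 CPM against 0.808, 2.08 and 1.04 CPM (-0.29 ± 0.22, adjusted p = 0.459), and satellites without polyA tails are not captured by this kind of library. RLTR4_MM-int (-0.41, adjusted p = 0.188) and MuLV-int (-0.31, adjusted p = 0.241), of the murine leukaemia virus group, did not pass.

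Among single copies, 218 of 60093 tested were higher (0.363%) and 131 lower (0.218%), or 0.581% in all, and without the block 117 and 30. The count of lower copies was 58 without the Suv39h1KO IfnarKO library of cohort 2 and 80 without the Suv39h1WT IfnarKO library of cohort 3. The groups did not overlap for 298 of these 349, against 10.2% of all tested copies. The table gives each copy a running number and no coordinates, so what gene a copy lies in was not analysed here. In the receptor-intact libraries 339 of the 349 had the same sign, and 228 were called there too (65.3% of the 349, and 59.5% of the 383 called there). Those 383 were 225 higher (0.374%) and 158 lower (0.263%). The Suv39h1 effect differed between the receptor genotypes for 14 copies (0.0233%), 13 with a larger value in IfnarKO (0.0216%) and 1 with a smaller one (0.00166%). Called copies lay in runs of nearby numbers: 196 of the 349 fell into 20 runs of at least 4 with gaps of at most 300. In each of the 20 runs the called copies moved in 1 direction.

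The longest run, from 149202 to 150190, held 71 called copies of 171 tested, all higher, and these were 31 SINEs, 24 LTR elements, 15 LINEs and 1 DNA transposon. The summed level of the 71 was 39.7, 44.3 and 44.5 CPM in the Suv39h1KO IfnarKO libraries against 2.94, 3.69 and 2.57 CPM in the Suv39h1WT IfnarKO libraries. In the receptor-intact libraries it was 54.0, 69.4 and 61.0 CPM against 4.95, 5.36 and 4.42 CPM, and 70 of the 71 were called there. The copy Lx5-149767, from this run, was at 1.89, 2.1 and 2.27 CPM without Suv39h1 and at 0 in the 3 Suv39h1WT IfnarKO libraries. B3-149682 was at 1.19, 1.28 and 1.55 CPM, and also at 0 with Suv39h1.

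**Figure D5:**
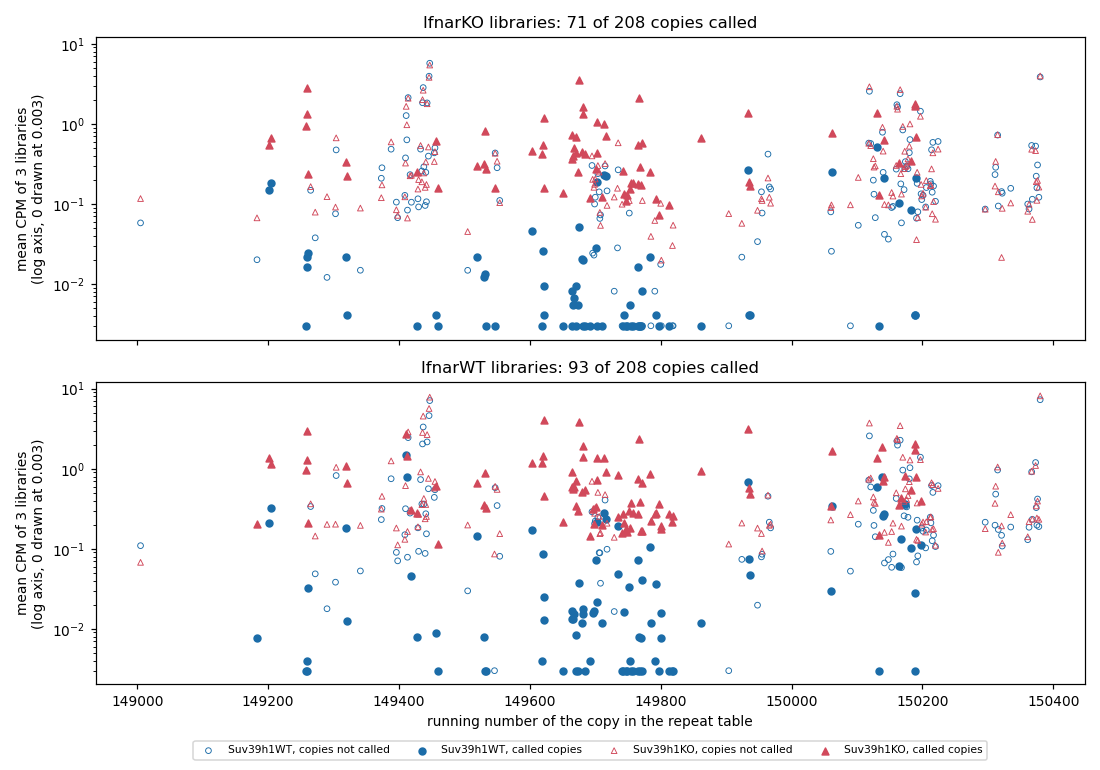
Mean CPM of 3 libraries (log axis, with 0 drawn at 0.003) of 208 copies with running numbers 149002 to 150390, in Suv39h1WT (circles) and Suv39h1KO (triangles) libraries, for IfnarKO above and IfnarWT below. Filled symbols mark the 71 and 93 called copies, whose triangles stand above their circles in both panels.

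Among satellites, 14 of 891 tested copies were higher and none lower, and all 14 were MMSAT4. Together these 14 had 2826 counts without Suv39h1 and 357 with it, or 12.8 against 1.90 CPM. Their subfamily as a whole was at -0.03 ± 0.08 (adjusted p = 0.846), with 609 copies tested. By family, 46 ERVK copies were higher and 22 lower (1.47% of those tested), 45 and 42 of L1 (1.05%), 21 and 19 of ERV1 (3.44%), and 17 and 10 of Alu (0.202%). Of 14 tested MuLV-int copies 5 were lower and none higher, and those 5 summed to 3.49 against 12.6 CPM, while the subfamily as a whole, at 250 against 316 CPM, did not pass. Of 49 tested RLTR4_MM-int copies 4 were lower and none higher. MMSAT4, MuLV-int and RLTR4_MM-int copies were among the runs of nearby called numbers. For example, 6 lower copies named B1_Mus1, MuLV-int and RLTR41C ran from 643629 to 643635. Counts of called copies are therefore not counts of independent loci.

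The largest falls were of adjacent numbers. L2c-4687090 was at 0 in the 3 Suv39h1KO IfnarKO libraries and at 3.18, 1.87 and 1.91 CPM in the Suv39h1WT IfnarKO libraries, and PB1D7-4687091 at 0 against 2.57, 1.29 and 1.32 CPM. Both were also at 0 in the Suv39h1KO IfnarWT libraries. L1ME1-2306119 fell by 3.51 (0, 0.0136 and 0.117 CPM against 0.614, 0.609 and 0.502 CPM). Its fall and those of MTE2a-3085831 and L1M2-2306108 were the next in size.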

How the data were processed

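RNA of unstimulated BMDCs was counted per gene and per repeat copy. The values are read counts as deposited by the authors, who used STAR, HOMER and the build mm10 per the submitters' processing notes (DESeq2 is named there too, without a role); versions and the treatment of reads that match several places are not given in the sources used here. TEs (retrotransposons, DNA transposons and Helitrons) and satellites were summed by subfamily, and copies with at least 10 counts in 3 libraries were tested singly. Genes and subfamilies passed filterByExpr. The fit was edgeR 4.0.16 (R 4.3.3) with TMM factors, a quasi-likelihood test, Benjamini-Hochberg adjustment, a threshold of 0.05 and all 12 libraries of the experiment, with the cohort number as a block because the comparison is defined as paired. Repeats were scaled by gene totals and gene TMM factors. The fit was also run on counts simulated with its own estimates of spread. There it recovered 52% of 1.5-fold and 82% of 2-fold changes, with 7 false calls among 173. No simulated library departed from the others of its group beyond those estimates and a cohort shift. The simulation therefore does not address the dependence on single libraries. Libraries of the same cohort deviated together from their group means, with correlations of 0.268 to 0.429 between the IfnarKO groups, so the numbers pair the samples. Over all 4 groups the average was 0.451 within cohorts and -0.222 across them. Deviations from a group mean cancel out within the group, so the value across cohorts follows from the value within them. Alternatives were no block, leaving out each library, the 6 libraries alone, DESeq2 1.42.0, other filters and other scalings.

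Gene positions are from GENCODE release M21 (GRCm38, the same assembly as mm10), which placed 14040 of 14386 tested genes. Named genes are the 12 largest rises and falls among called genes of at least 1 CPM without Gm, Rik and small RNA models, and from each gene list up to 4 called and 3 abundant members; named subfamilies have at least 50 counts per library and named copies at least 20 counts. The members and lists were chosen with earlier results of these data known. In the main fit, p-values set a group difference against the spread left after the cohort block, estimated over all 12 libraries. The block takes out the spread between cohorts. Libraries of a group differed far beyond sampling noise.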

Additional observations from a re-analysis of the deposited data

Results flagged for a closer look

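The Suv39h1 effect differed between receptor genotypes, by edgeR's test of the difference with an adjusted p under 0.05, for 14 single copies (0.0233% of 60093). Differences are log2 effects in IfnarKO minus those in IfnarWT libraries. RLTR11A2-646114 differed by 18.95, a fitted value that depends on the prior count, since it was at 0, 9.55 and 7.39 CPM in the Suv39h1KO IfnarKO libraries of cohorts 1, 2 and 3, at 0.684 CPM in the Suv39h1WT IfnarWT library of cohort 2, and at 0 in the other 9 libraries. Of the 14 copies 12 carry running numbers from 2585585 to 2585618. Together these 12 were at 22.8, 17.5 and 11.4 CPM in Suv39h1KO IfnarKO and 14.7, 13.7 and 14.9 CPM in Suv39h1WT IfnarKO libraries. In the receptor-intact libraries they were at 2.80, 4.55 and 0.173 CPM without Suv39h1 and 13.4, 32.2 and 24.8 CPM with it, so the low group is Suv39h1KO IfnarWT. None of the 12 passed in the IfnarKO comparison. The differences were 4.12 for MTC-2585611, 3.57, 3.35 and 2.98 for IAPEz-int-2585591, IAPEz-int-2585586 and IAPEz-int-2585590, and 3.30 and 3.20 for IAPLTR2_Mm-2585592 and IAPLTR2_Mm-2585585. They were 3.58 and 4.11 for Lx8-2585603 and Lx8-2585604, 5.92 for MER5B-2585614, 4.61 for ORR1A1-2585610, and 3.31 and 3.03 for L1Md_F2-2585617 and L1Md_F2-2585618. B1F-4516372 differed by -1.61, with 1.02, 0.832 and 0.9 CPM in Suv39h1KO IfnarKO and 2.83, 2.08 and 1.95 CPM in Suv39h1WT IfnarKO libraries.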

How the results depend on the processing

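Without the replicate block, 27 genes were higher and 5 lower, 4 subfamilies higher and 2 lower, and 117 copies higher and 30 lower. In the fit of only the 6 libraries with the block, 25 genes were higher and 3 lower, and 11 subfamilies lower. DESeq2 called 449 genes higher and 373 lower, and a different Suv39h1 effect for 13 genes and 1 subfamily. With no filter on low counts 192 genes were higher and 135 lower. Scaling by repeat totals left 4 subfamilies lower. Without the 10 copies with most counts 1 subfamily was higher and 0 lower, and Ricksha_c (-0.469), MMERGLN-int (0.149), MMERVK10D3_I-int (0.641), FordPrefect (-0.129) and IAPLTR3-int (0.606) reversed. Leaving out 1 library at a time gave 41 to 275 genes higher and 5 to 281 lower, 8 to 14 subfamilies higher and 7 to 12 lower, 156 to 222 copies higher and 58 to 190 lower, 0 genes and 0 to 4 subfamilies with a different effect, and a TE share difference of -0.483 to -0.135 percentage points. The causes were not tested. Low genes set the depth limit: a group at 0 counts allows up to 0.0155 CPM.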
